A study of Mus musculus with 4 samples.

Results

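The 38 genes described here belong to the interferon and double-stranded RNA response. They were chosen by name, from a list that takes in RNA sensors, the transcription factors that carry the interferon signal, genes that interferon induces, and genes of antigen presentation. All 38 were found among the 22481 gene symbols of the deposited mRNA table, and none had 0 in all count columns. RNA was sequenced from the pancreatic islets of 129sv mice at an age of 2 weeks. There were 2 libraries from mice labelled Ngn3Mettls KO (KO) and 2 from wild-type mice (WT), each from a pool of more than 400 islets. The labels name neither the deleted exons nor a Cre driver, and no treatment or infection is stated for either group. The Ngn3 part of the label is not explained, so which cells of the pools carry the deletion is not known here. Separate litters or animals per pool are not stated, so p-values measure the spread between pools, which may be technical.

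Cells detect double-stranded RNA with the helicases RIG-I (Ddx58) and MDA5 (Ifih1), which pass the signal to MAVS on mitochondria and from there to IRF3 and IRF7, the factors that switch on interferon genes. Secreted interferon then acts through its receptors on a complex that holds STAT2 and IRF9, which binds interferon-stimulated response elements and induces a large set of antiviral genes. In beta cells this pathway is known from viral infection and from early type 1 diabetes. The knockout's label points to Mettl3 and Mettl14, the enzyme pair that writes N6-methyladenosine on RNA. Loss of this mark has been linked, in other mouse cells, to double-stranded RNA made by the cell itself and to an interferon response. The comparison of KO with WT therefore asks whether these genes differ in islets.

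The table gave an estimated count per gene, and with the authors' scaling divided out the libraries held 4057721 to 5232248 fragments. None of the 14 endocrine markers examined, among them Ins1, Ins2 and Gcg, was at 0 in all libraries, and together they made 102204 to 119438 CPM (counts scaled to library size, TMM-normalised). Mettl14 measured 14.1 and 15.6 CPM in knockout pools against 21.4 and 21.8 in wild-type pools, and Mettl3 18.6 and 17.2 CPM in knockout pools against 29.3 and 17.1 in wild-type pools. Neither passed the test described below (edgeR adjusted p = 0.369 and 0.634), and a count over all exons is no check of an exon-level deletion. Other cell types were uneven within a genotype: the 10 acinar genes summed to 4013 and 8143 CPM in knockout pools against 8967 and 5680 in wild-type pools. Of these 10, 1 had a log2 ratio of KO to WT above 0 (median -0.28), and none passed. The 7 mesenchymal genes summed to 973 and 858 CPM in knockout pools against 1684 and 680 in wild-type pools, and none passed. The 8 endothelial genes summed to 821 and 718 CPM in knockout pools against 790 and 652 in wild-type pools. Of these 8, 6 had a log2 ratio above 0, and none passed. Of the 14 endocrine markers 9 had a log2 ratio above 0 (median 0.057). Of the same 14, 1 passed, beside 0.227% of all genes tested.

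The interferon-stimulated response element was more frequent in the promoters of the members than over all genes, and many members lacked it. The members were chosen by name from the pathway that acts through this element, so the excess is not independent of that choice. Promoter windows from RefSeq (build GRCm38.p6), of 250 bases before and 50 after a start site, were present for 30 of the 38 members, with 36 windows in all. The core of the interferon-stimulated response element, searched as GAAANNGAA on both strands with overlapping matches allowed, occurred in 17 of these 36 windows (47.2%), against 8.56% of all 32851 windows in the table. It was found in 10 of 16 induced genes with a window and in 5 of 6 RNA sensors and regulators, but in only 1 of 5 transcription factors (Stat2) and 1 of 3 antigen presentation genes (B2m). The gamma-activated site, searched as TTCNNNGAA, occurred in 22.2% of the members' windows and 8.30% of all windows. Stretches of 80 bases upstream of the start site are printed for 5 members that the results below turn on or that are textbook interferon-induced genes, with the response element core in capitals, in either orientation. A match is a description of the letters and not a shown binding site.
Ifih1 (GRCm38.p6, chr2:62646324-62646403, minus strand): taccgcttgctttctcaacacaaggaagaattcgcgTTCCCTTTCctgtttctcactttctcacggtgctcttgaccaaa
Isg15 (chr4:156200847-156200926, minus strand): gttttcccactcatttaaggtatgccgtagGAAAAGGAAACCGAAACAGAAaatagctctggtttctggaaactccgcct
Ifit1 (chr19:34640757-34640836, plus strand): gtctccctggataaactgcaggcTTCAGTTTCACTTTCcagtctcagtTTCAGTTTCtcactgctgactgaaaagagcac
Oas1a (chr5:120907526-120907605, minus strand): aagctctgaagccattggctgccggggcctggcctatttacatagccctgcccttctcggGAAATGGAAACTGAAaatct
B2m (chr2:122147512-122147591, plus strand): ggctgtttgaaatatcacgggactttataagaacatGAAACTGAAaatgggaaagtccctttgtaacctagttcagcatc

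Isg15 and Ifit1 carried 3 overlapping or neighbouring matches each in these stretches, Oas1a 2, and Ifih1 and B2m 1 each.

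No member of the interferon and double-stranded RNA response passed the test between KO and WT islets, in either direction. Of the 38 members 31 had enough counts to be tested, and 0 were called by edgeR's quasi-likelihood test at a Benjamini-Hochberg adjusted p under 0.05, where 0.227% of the 12789 genes tested were called, 0.133% higher and 0.0938% lower in KO. The lowest adjusted p of a member was 0.332. The log2 fold change, or log2 ratio of KO to WT, was above 0 for 15 of the 31 members and below 0 for 16. Their median was -0.026, beside 0.0046 over all genes tested. At an unadjusted p under 0.05 there were 2 members, Oas1a (lower in KO) and B2m (higher in KO), or 6.45%, where 12.6% of all genes were under that limit. FPKM values are fragments per kilobase of transcript, scaled to library size. Limma on log2(FPKM + 1) and DESeq2 also called 0 members, where they called 0% and 1.20% of all genes. Among the members whose values are given by rule, DESeq2 gave no adjusted p for Oas1a, Usp18, Oasl2, Ifit2, Irf7, Dhx58 and Psmb8. It could not call these. Ifit1, Ifit3, Bst2, Ifi44, Xaf1, Gbp2 and Gbp3 had lower mean CPM than Oasl2 in both groups and are not covered by that list. DESeq2 may not have been able to call them either. At an unadjusted p under 0.05, limma had 5 of 32 members, a larger share than the 10.9% of all genes. DESeq2 had 0 of 31, beside 7.38% of all genes. The 5 by limma were Ddx58 (log2 ratio 0.49), Irf9 (0.49), B2m (0.38), Adar (0.36) and Oas1a (-0.89). In whole islets, a lower value cannot tell fewer cells of a type from less RNA per cell.

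**Figure D1:**
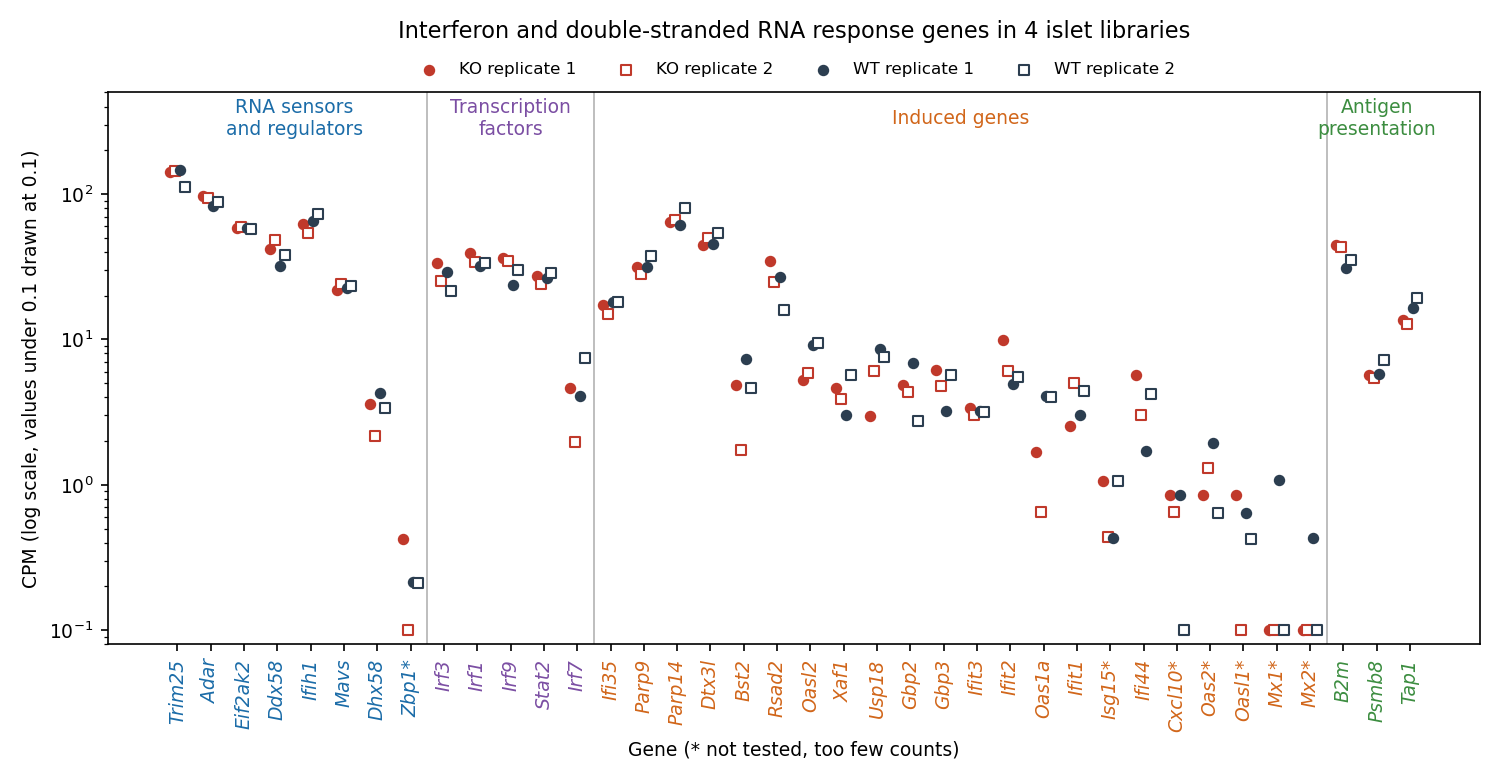
CPM (log axis) of each of the 38 members in KO replicates 1 and 2 (red) and WT replicates 1 and 2 (dark), by role and ordered by mean FPKM within a role; asterisks mark the 7 members with too few counts to test. The sensors Trim25, Adar, Eif2ak2, Ifih1 and Ddx58 lie between 31.9 and 146 CPM in all libraries, while most induced genes lie under 10 CPM and Mx1 and Mx2 are at 0 in 3 of the 4 libraries.

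The precision differed with the level of the genes. For 15 of the 31 members (48.4%) the 95% interval of the log2 fold change lay within -1 and 1. The share over all genes tested was larger, at 67.9%. A doubling or a halving of the mean lay outside such an interval. Of these 15 members, 6 were RNA sensors or regulators. The standard error had a median of 0.15 for the 7 tested sensors and regulators and 0.46 for the 16 tested induced genes, beside 0.20 over all genes. Of the induced genes, Ifi35, Parp9, Parp14 and Dtx3l had intervals within -1 and 1, and the other 12 tested genes had intervals that reached past -1 or 1.

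**Figure D2:**
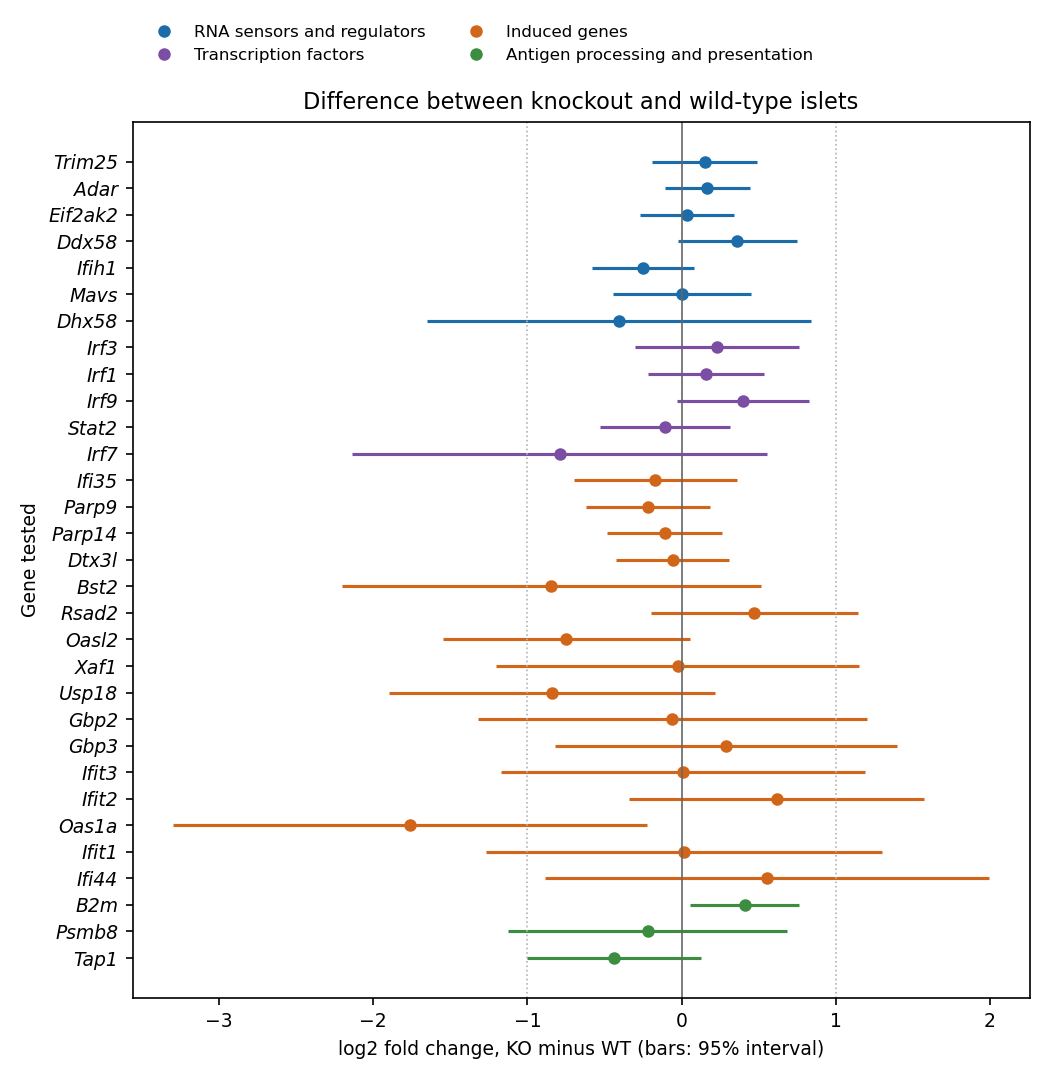
log2 fold change (KO minus WT) of the 31 tested members with a 95% interval derived from the edgeR fit, coloured by role. All intervals but those of Oas1a (-3.30 to -0.23) and B2m (0.05 to 0.76) span 0, and the intervals of the RNA sensors, Dhx58 apart, lie within -1 and 1.

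Among the RNA sensors and their regulators, 5 of 7 tested genes had a log2 fold change above 0 and 2 below 0, none called, and with RLE in place of TMM factors Mavs moved below 0 (-0.0019). The KO and WT values did not overlap for 4 of them, with KO above WT for Ddx58, Adar and Eif2ak2 and below it for Ifih1. Such separation was common, since 22.7% of all genes had both KO libraries above both WT libraries and 22.3% both below. Per length, 5 of the 8 sensors and regulators were among the better expressed members, while Dhx58 averaged 1.94 and Zbp1 0.173 FPKM. Trim25, the ubiquitin ligase that activates RIG-I, averaged 21.3 FPKM over the 4 libraries, Adar 21.1, Eif2ak2 17.6, Ddx58 14.6 and Ifih1 13.6 FPKM.

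Ddx58 (ENSMUSG00000040296, chromosome 4, 40203773 to 40239828), which encodes the RNA helicase RIG-I that recognises RNA with a triphosphate end, measured 42.0 and 48.0 CPM in knockout pools 1 and 2, and 31.9 and 38.1 in wild-type pools 1 and 2, the order kept below. Both KO libraries lay above both WT libraries, by a log2 ratio of 0.36 ± 0.16 SE (edgeR adjusted p = 0.421). Ifih1, the gene of MDA5, which binds long double-stranded RNA, had the opposite sign, with 62.0 and 54.1 CPM in knockout pools against 65.3 and 73.0 in wild-type pools (log2 ratio -0.25 ± 0.14 SE, edgeR adjusted p = 0.513). These helicases, which share an adapter, thus had values on opposite sides of 0, and neither difference passed. Dhx58, the gene of LGP2, a helicase without a signalling domain, was low, at 3.59 and 2.17 CPM in knockout pools against 4.28 and 3.38 in wild-type pools, from 9 to 22 fragments a library (log2 ratio -0.41 ± 0.53 SE, edgeR adjusted p = 0.800). Its groups overlapped, and the value was -0.82 leaving out KO replicate 1, -0.096 leaving out KO replicate 2, and -0.69 by limma on log2(FPKM + 1).

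Mavs, the adapter that both helicases use, had overlapping groups at 21.7 and 24.1 CPM in knockout pools against 22.5 and 23.3 in wild-type pools. Its log2 fold change was 0.0027 ± 0.19 SE (edgeR adjusted p = 0.998), and its sign turned between settings, to -0.075 leaving out KO replicate 2 and to -0.033 leaving out WT replicate 1. Trim25 measured 141 and 143 CPM in knockout pools against 146 and 111 in wild-type pools, where only WT replicate 2 stood apart (log2 ratio 0.15 ± 0.15 SE, edgeR adjusted p = 0.727). Without that library its log2 fold change was -0.033.

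Adar, which edits adenosine to inosine in double-stranded RNA and so keeps the cell's own RNA from activating MDA5, measured 96.4 and 94.5 CPM in knockout pools against 82.5 and 87.8 in wild-type pools. The KO libraries were close to each other and above both WT libraries, with a log2 ratio of 0.17 ± 0.12 SE (edgeR adjusted p = 0.611). Eif2ak2, the gene of PKR, the kinase that halts translation when it binds double-stranded RNA, gave the flattest counts, at 58.7 and 59.3 CPM in knockout pools against 58.0 and 57.1 in wild-type pools (log2 ratio 0.035 ± 0.13 SE, edgeR adjusted p = 0.948). Its FPKM values had the opposite order, at 16.6 and 14.8 in KO and 22.1 and 17.1 in WT, and limma on log2(FPKM + 1) gave -0.29. The count and FPKM columns thus disagreed on the sign of this gene, and neither difference passed. Zbp1, the sensor of Z-form nucleic acid, had at most 2 fragments in any library and was not tested.

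The transcription factors of the pathway were present at levels that did not pass a difference either, with 3 of 5 log2 fold changes positive and 2 negative. Irf9 (chromosome 14, 55603571 to 55610030), the DNA-binding subunit of the complex with STAT2, measured 36.1 and 34.5 CPM in knockout pools against 23.6 and 30.0 in wild-type pools. Both KO libraries lay above both WT libraries, by 0.40 ± 0.18 SE on the log2 scale (edgeR adjusted p = 0.427), and Irf9 overlaps Rnf31 on the same strand, with which it can share reads. Stat2, its partner, measured 27.2 and 24.1 CPM in knockout pools against 26.6 and 28.8 in wild-type pools, with overlapping groups (log2 ratio -0.11 ± 0.18 SE, edgeR adjusted p = 0.854).

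Irf1, an activator that interferon gamma induces, measured 39.0 and 33.9 CPM in knockout pools against 31.9 and 33.4 in wild-type pools, a separation of under 1 CPM between the nearest libraries (log2 ratio 0.16 ± 0.16 SE, edgeR adjusted p = 0.734, with 0.041 when KO replicate 1 was left out). Irf3, which is made in advance and activated by phosphorylation, measured 33.8 and 25.4 CPM in knockout pools against 28.9 and 21.6 in wild-type pools (log2 ratio 0.23 ± 0.23 SE, edgeR adjusted p = 0.727). In both genotypes replicate 1 was the higher library, and without KO replicate 1 the log2 fold change of Irf3 was -0.0015. Irf7, which interferon itself induces and which amplifies the response, was low and uneven, at 4.64 and 1.95 CPM in knockout pools against 4.07 and 7.40 in wild-type pools (log2 ratio -0.79 ± 0.58 SE, edgeR adjusted p = 0.618). Its groups overlapped, and the value was -1.55 leaving out KO replicate 1 and -0.30 leaving out WT replicate 2.

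The induced genes were mostly at low levels in both genotypes. Of 22 genes 16 were tested, 6 with a positive and 10 with a negative log2 fold change and none called, with a median of -0.058. Both KO libraries lay below both WT libraries for 5 of them, Oas1a, Usp18, Oasl2, Parp9 and Ifi35, and above for 1, Ifit2, which is 31.2% and 6.25% of the 16, beside 22.3% and 22.7% of all genes. The 6 genes with too few counts were Isg15, Oas2, Oasl1, Mx1, Mx2 and Cxcl10. None had more than 10 fragments in a library. Isg15, the ubiquitin-like protein gene that responds to interferon in most cells, was listed at 5 and 2 fragments in KO and 2 and 5 fragments in WT. Mx1 had 5 fragments in WT replicate 1 and 0 in the other libraries, and the table places Mx1 and Mx2 in 1 merged span with other genes.

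The lowest adjusted p among the members was that of Oas1a (ENSMUSG00000052776, chromosome 5, 120896256 to 120907521), an enzyme gene whose product makes 2′-5′ oligoadenylates on double-stranded RNA. It measured 1.69 and 0.652 CPM in knockout pools against 4.07 and 4.02 in wild-type pools. Both KO libraries lay below both WT libraries, on 9 and 3 fragments against 21 and 17. The log2 fold change was -1.76 ± 0.66 SE (edgeR adjusted p = 0.332), with -2.60 when KO replicate 1 was left out and -1.25 when KO replicate 2 was. Oasl2, an OAS-like gene, measured 5.28 and 5.86 CPM in knockout pools against 9.21 and 9.52 in wild-type pools, again without overlap (log2 ratio -0.75 ± 0.34 SE, edgeR adjusted p = 0.426). Other OAS genes were near or under the limit of testing: Oas1g and Oas1c, close relatives of Oas1a chosen after their values were seen, had 1.48 and 3.26 CPM in knockout pools against 0.857 and 1.69 in wild-type pools, and 3.59 and 3.91 CPM in knockout pools against 2.36 and 6.34 in wild-type pools. Oas1g, with too few counts to test, thus did not share the order of Oas1a, and reads can be shared among such copies.

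Usp18, a protease gene that removes ISG15 from proteins and damps the interferon receptor, measured 2.95 and 6.08 CPM in knockout pools against 8.57 and 7.61 in wild-type pools. Both KO values were below both WT values, but the KO libraries differed 2-fold from each other (log2 ratio -0.84 ± 0.45 SE, edgeR adjusted p = 0.493, with -0.42 without KO replicate 1 and -1.45 without KO replicate 2). Ifit2, which binds viral RNA, measured 9.92 and 6.08 CPM in knockout pools against 4.93 and 5.50 in wild-type pools, where KO replicate 1 stood apart (log2 ratio 0.62 ± 0.41 SE, edgeR adjusted p = 0.580, with 0.21 without that library). Of its relatives on chromosome 19, Ifit3 measured 3.04 to 3.38 CPM over the 4 libraries and Ifit1 2.53 to 4.996 CPM, and their difference from Ifit2 was not tested. The members near 0 on the log2 scale included Ifit1 (0.014 ± 0.55 SE) and Ifit3 (0.0078 ± 0.51 SE), both with 3 response element matches.

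By FPKM, the best expressed induced genes were Ifi35, Parp9, Parp14 and Dtx3l, at means of 13.6, 9.76, 9.63 and 7.67 FPKM over the 4 libraries. Parp9 and Dtx3l encode an ADP-ribosyltransferase and the ubiquitin ligase it binds, and their annotated spans on chromosome 16 overlap on opposite strands. Parp9 measured 31.2 and 28.0 CPM in knockout pools against 31.7 and 37.2 in wild-type pools (log2 ratio -0.22 ± 0.17 SE, edgeR adjusted p = 0.652), and Dtx3l 44.7 and 50.2 CPM in knockout pools against 45.0 and 53.7 in wild-type pools (log2 ratio -0.057 ± 0.16 SE, edgeR adjusted p = 0.922). Dtx3l overlapped between the groups, and its sign turned without KO replicate 1 (0.012) and without WT replicate 2 (0.079). Parp14, another ADP-ribosyltransferase gene, measured 63.9 and 66.2 CPM in knockout pools against 60.8 and 79.7 in wild-type pools (log2 ratio -0.11 ± 0.16 SE, edgeR adjusted p = 0.823), with 0.099 without WT replicate 2. Ifi35, whose product binds NMI, measured 17.3 and 14.99 CPM in KO and 18.2 in both WT libraries (log2 ratio -0.17 ± 0.23 SE, edgeR adjusted p = 0.802). The remaining tested induced genes, Rsad2, Bst2, Ifi44, Gbp2, Gbp3, Xaf1, Ifit1 and Ifit3, had overlapping groups and log2 ratios from -0.85 for Bst2 to 0.55 for Ifi44. Among them Rsad2, the gene of the antiviral enzyme viperin, was singled out with its values in view, at 34.4 and 24.98 CPM in knockout pools against 26.98 and 15.9 in wild-type pools.

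**Figure D3:**
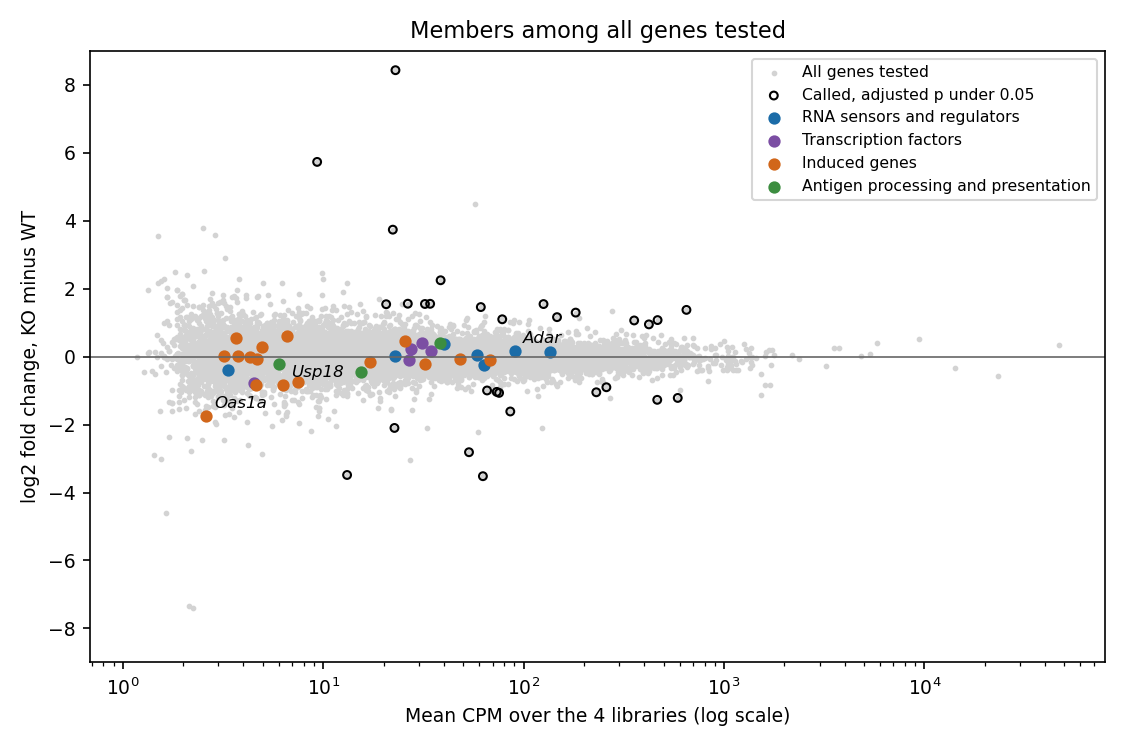
log2 fold change (KO minus WT) against mean CPM over the 4 libraries (log axis) for the 12789 genes tested (grey), with the 29 called genes ringed and the 31 tested members coloured by role. The members lie within the grey cloud at each level and none is ringed, with Oas1a at the lowest value, -1.76.

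The antigen presentation members differed in sign. B2m (ENSMUSG00000060802, chromosome 2, 122147686 to 122153083), the light chain of MHC class I, had the highest FPKM of all members. It measured 44.5 and 43.0 CPM in knockout pools against 31.1 and 34.9 in wild-type pools. Both KO libraries lay above both WT libraries, by 0.41 ± 0.15 SE on the log2 scale (edgeR adjusted p = 0.336). Tap1, a subunit of the transporter that carries peptides into the endoplasmic reticulum, measured 13.5 and 12.8 CPM in knockout pools against 16.5 and 19.2 in wild-type pools (log2 ratio -0.44 ± 0.24 SE, edgeR adjusted p = 0.504). Psmb8, an immunoproteasome subunit, measured 5.70 and 5.43 CPM in knockout pools against 5.78 and 7.19 in wild-type pools (log2 ratio -0.22 ± 0.39 SE, edgeR adjusted p = 0.861). Tap1 and Psmb8 thus lay lower in KO where B2m lay higher, and none of these 3 differences passed.

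Immune cells in the islet pools also express many of these genes, B2m and the class I genes among them. The 18 immune markers in the table summed to 255 and 170 CPM in knockout pools against 173 and 90.5 in wild-type pools, with 11 of 12 tested markers positive (median 0.65) and none called. The T cell marker Cd3e and the natural killer cell marker Ncr1 were at 0 in all 4 libraries. The part of immune cells in the values of B2m and of the other members was not tested.

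The RNA sensors and the induced genes were set side by side, since the sensors act upstream of the induced genes and most are themselves inducible. The median log2 fold change was 0.035 for the 7 sensors and regulators and -0.058 for the 16 induced genes, beside 0.0046 for all genes, and by limma on log2(FPKM + 1) that of the sensors was -0.0032. A positive value was found in 71.4% of the sensors, 37.5% of the induced genes and 50.7% of all genes. The induced genes were not evenly low in KO: the median deviation from a gene's own mean was 0.037 and -0.058 in KO replicates 1 and 2, -0.0017 in WT replicate 1 and 0.21 in WT replicate 2, in log2(CPM + 1). WT replicate 2 was thus the library that stood apart. Without it the median log2 fold change of the induced genes was 0.039, and without WT replicate 1 it was -0.22. For the sensors the same deviations were 0.070 and 0.068 in KO and -0.0057 and -0.029 in WT.

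**Figure D4:**
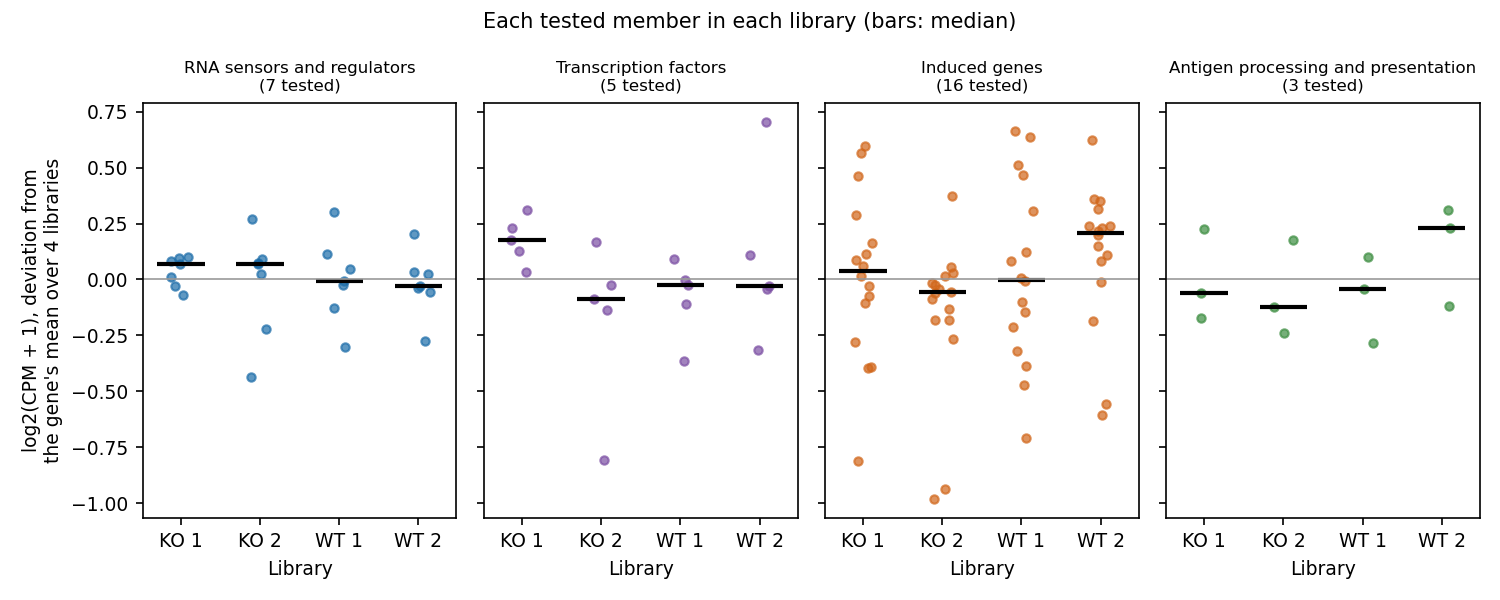
Deviation of each tested member's log2(CPM + 1) from its own mean over the 4 libraries, by role and library (points: genes; bars: median). The median of the induced genes is 0.21 in WT replicate 2 and between -0.058 and 0.037 in the other 3 libraries, and the medians of the sensors lie between -0.029 and 0.070.

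The other genes of the pathway gave the same count of calls. Of 80 further genes on the list, covering receptors, other nucleic acid sensors, RNA- and DNA-removing enzymes, other induced genes and other antigen presentation genes, 70 were tested by edgeR and 0 called, beside 0.227% of all genes, with 6 at an unadjusted p under 0.05, a limit that 12.6% of all genes were under. Log2 fold changes were positive for 40 and negative for 30, with a median of 0.025. No interferon transcript was detected: Ifnb1, Ifng and the other 17 interferon genes in the table, counted after their values were seen, had 0 fragments in every library. A count of 0 allows up to 0.573 to 0.739, depending on the library, in CPM units, for counting error only.

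In the receptor and signalling list, with 7 positive and 6 negative values, the lowest p-values were those of Stat3 and Jak1. Stat3, a factor downstream of interleukin-6 type cytokines, measured 157 and 147 CPM in knockout pools against 203 and 236 in wild-type pools (log2 ratio -0.53 ± 0.12 SE, edgeR adjusted p = 0.173). Jak1, the kinase bound to interferon and many cytokine receptors, measured 208 and 185 CPM in knockout pools against 294 and 267 in wild-type pools (log2 ratio -0.51 ± 0.12 SE, edgeR adjusted p = 0.181). Jak1 did pass with DESeq2 (adjusted p = 0.0456) and in edgeR with a replicate block (adjusted p = 0.0338). Both KO libraries lay below both WT libraries for Stat3 and Jak1, as they did for 22.3% of all genes. Jak2 and Ifngr1 of the same list, singled out with their values in view, were separated the other way, with KO above WT. Their log2 ratios were 0.34 and 0.41 (edgeR adjusted p = 0.329 and 0.412). The receptor gene Ifnar1, singled out with its values in view, was at 90.7 and 95.4 CPM in knockout pools against 74.5 and 89.0 in wild-type pools.

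Among other nucleic acid sensors and their adapters, 9 of 12 values were positive and none was called. Traf3, a ubiquitin ligase that MAVS recruits, was at 0.21 on the log2 scale. Of the enzymes that remove or edit nucleic acids (5 of 10 positive), Adarb1, the second editing enzyme, measured 83.1 and 70.8 CPM in knockout pools against 101 and 125 in wild-type pools (log2 ratio -0.55 ± 0.15 SE, edgeR adjusted p = 0.229), and Samhd1 was at -0.25. Adar and Adarb1 therefore had values of opposite sign.

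Of the 25 other induced genes tested, 13 were positive and 12 negative, with a median of 0.0026. Ddx60, a helicase gene, measured 4.01 and 5.86 CPM in knockout pools against 18.6 and 9.52 in wild-type pools (log2 ratio -1.51 ± 0.43 SE, edgeR adjusted p = 0.240). It passed only when WT replicate 2 was left out (-1.91, adjusted p = 0.0209), and was at -0.96 without WT replicate 1. Trim21 was at 0.40. Among the other antigen presentation genes (6 of 10 positive) H2-D1, an MHC class I heavy chain, was at 0.24 and Psme1, a proteasome activator subunit, at -0.38. None of these passed the test.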

How the data were processed

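The libraries were rRNA-depleted and strand-specific and read as 150-base pairs, per the labels' protocols. Cutadapt 1.9.3, HISAT2 2.0.4, Cufflinks, Cuffdiff and the build mm10 are named in the submitters' processing notes, and the annotation is not given in the sources used here. Both FPKM and estimated counts were deposited by the authors. The deposited counts carry a factor per library: after dividing by that library's step, 93.7% to 94.3% of values lay within 0.1 of a whole number. Depth as given here is the scaled total divided by that step.

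Counts of 1 symbol were summed, rounded, filtered with filterByExpr (12789 genes kept), TMM-normalised and tested in edgeR 4.0.16 (R 4.3.3) with genotype as the only term, p-values adjusted over all genes. The common biological coefficient of variation was 16.0%. Alternatives were DESeq2 1.42.0, limma 3.58.1 on log2(FPKM + 1) or log2(FPKM + 0.1) with a mean FPKM of at least 1, RLE factors, no filter, scaling undone, a replicate block, and each library left out. The fits were tested on simulated data. 1 emptied line of the table was not used. Gene positions are GENCODE release M21 on GRCm38 (mm10).

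The members and all lists were chosen with earlier results of these data known. Values per library are given for tested sensors, factors and antigen presentation genes, for the 4 induced genes with the highest mean FPKM, for the 4 with the largest non-overlapping difference, and for the 2 lowest p-values of each further list, except that some of these are not reported here.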

Additional observations from a re-analysis of the deposited data

How the results depend on the processing

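The count of 0 called members was the same in all 11 alternatives run, 4 of which each left out 1 library. DESeq2 could not call some members, Oas1a and Usp18 among them, since it gave them no adjusted p. Over all genes, 29 calls became 154 with DESeq2, 0 with limma on log2(FPKM + 1), 0 with log2(FPKM + 0.1), 214 with a replicate block, and 10 to 245 with 1 library left out (10 without KO replicate 2, 245 without WT replicate 2). The median of the RNA sensors and regulators was -0.0032 with log2(FPKM + 1), -0.0037 with log2(FPKM + 0.1), 0.0084 without a filter on low counts, and 0.025 to 0.064 with 1 library left out. That of the induced genes was -0.22 to 0.039 with 1 library left out. Of all 31 tested members, named or not, 5 had the opposite sign by limma on log2(FPKM + 1). Of the 33 genes named by rule, 2 turned sign with another tool or setting. Mavs was at -0.0018 with DESeq2, -0.0032 and -0.0037 with limma at pseudocounts of 1 and 0.1, -0.0019 with RLE factors, -0.0083 without a filter and -0.0074 with the scaling undone. Eif2ak2 was at -0.29 and -0.31 with limma at those pseudocounts. With 1 library left out, 5 of the named genes turned sign: Mavs (-0.075 to 0.064), Trim25 (-0.033 to 0.35), Irf3 (-0.0015 to 0.45), Parp14 (-0.30 to 0.099) and Dtx3l (-0.19 to 0.079). The cause was not tested. The replicate numbers of the 2 pairs are not said to mark a litter or day (correlation of deviations 0.185), and with the replicate block no member passed. At the depth of these libraries, 6 of the 22 induced genes had too few counts to test.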
